A study of Mus musculus with 6 samples.

Results

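Of 6 mouse miRNAs grouped by name as induced by LPS inside cells, mmu-miR-9-5p, mmu-miR-9-3p, mmu-miR-147-3p, mmu-miR-147-5p, mmu-miR-187-3p and mmu-miR-2137, only miR-9-3p and miR-2137 were detected in macrophage exosomes. They are 6 of the 1881 miRNAs on the array and were taken with all of their probes. miR-2137 was detected on all 3 LPS and all 3 control arrays, as were 10.5% of all miRNAs. miR-9-3p was detected on all 3 LPS arrays and no control array, as were 9.94%, and the other 4 were detected on no array. The group was described as scarce; this held for 5 of the 6, but miR-2137 lay far above background on every array.

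The series holds exosomal RNA of RAW 264.7, a mouse macrophage line, on 6 one-colour Agilent miRNA arrays. Exosomes from cells given LPS are on 3 arrays and exosomes from control cells of the same line, with no LPS, on the other 3. LPS, lipopolysaccharide, is a bacterial cell wall component sensed by TLR4. It was given at 2 µg/mL, and exosomes were isolated by size-exclusion chromatography from supernatant taken after 72 h. For the controls the sources used here state no culture time, so culture time and LPS cannot be told apart. The labels do not call the replicates separate cultures, and p-values then reflect sample-to-sample spread that may be technical only. RAW 264.7 is a single transformed line, and fewer vesicles cannot be told apart from less of a miRNA per vesicle.

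Toll-like receptors switch on NF-κB, which drives transcription of cytokine genes together with a small set of miRNA genes, and several of those miRNAs in turn restrain the response. miR-9 is best known from neurons and neural progenitors, and in human monocytes and neutrophils it is induced through TLR4 and represses NFKB1. miR-147 is induced by Toll-like receptor ligands in mouse macrophages and lowers their cytokine output. miR-187 is an IL-10-dependent miRNA of human monocytes that targets TNF mRNA. A miRNA gene is transcribed as a hairpin whose arms, named 5p and 3p, can each give a mature miRNA, and the seed at bases 2 to 8 pairs with target mRNAs.

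The mature sequences are shown to set the members apart by seed. RefSeq (GRCm38.p6) held 4 of the 6 by name, given 5′ to 3′ with the seed in capitals.
miR-9-5p: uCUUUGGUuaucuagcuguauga
miR-9-3p: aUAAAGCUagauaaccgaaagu
miR-147-5p: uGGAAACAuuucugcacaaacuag
miR-2137: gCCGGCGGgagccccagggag
The 4 seeds differ, and no other of the 1679 mature miRNA names in that table carries any of them. Both miR-9 arms come from 3 hairpins, Mir9-1, Mir9-2 and Mir9-3, on chromosomes 3, 13 and 7, so the array cannot say which locus a miR-9 signal came from. In the Mir9-1 hairpin, shown because 1 of its arms was detected and the other was not, the capitals mark miR-9-5p first and miR-9-3p second.
Mir9-1: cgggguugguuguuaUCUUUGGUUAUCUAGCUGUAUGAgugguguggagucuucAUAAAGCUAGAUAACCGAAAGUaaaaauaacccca

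The probes decide what the arrays can see, since each is complementary to the 3′ part of its miRNA. The 5 printed here are the probes of both detected miRNAs and the brightest of miR-147-3p, with capitals for the bases by which a probe is longer than the shortest probe of its miRNA.
miR-9-3p, longer probe: actttcggttatctagctT
miR-9-3p, shorter probe: actttcggttatctagct
miR-2137, longer probe: ctccctggggctC
miR-2137, shorter probe: ctccctggggct
miR-147-3p, longest of 4 probes: tagcagaagcatttcCGC
The longer miR-9-3p probe covers bases 4 to 22 of its miRNA. It maps in mm9, the build of the files, to chr3:88019577-88019595, chr7:86650207-86650225 and chr13:83878466-83878484. In the RefSeq gene table each of the 3 miR-9 hairpins lies within a long non-coding RNA gene, Gm3764 for Mir9-1, Mir9-3hg for Mir9-3 and C130071C03Rik for Mir9-2. The miR-147-3p probe has the position chr2:122466591-122466607 in the files, 1 base shorter than the probe, and Mir147 lies within AA467197, a protein-coding gene also named Nmes1. The longer miR-2137 probe covers bases 9 to 21 and has no genome position in the files; RefSeq places Mir2137 on chromosome X, within Zfp185. Of the bases that the longer miR-2137 probe pairs with, at most 8 in a row occur in any other mature miRNA of the RefSeq table, and for the longer miR-9-3p probe at most 12, in miR-9b-3p.

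All values below are the scanner's processed signal, in intensity units after background subtraction, averaged over the spots of a probe; a miRNA is represented by its brightest probe. The arrays differed in brightness with the groups. Over the 198 miRNAs that every array detected, the 75th percentile of the signal was 2229 ± 180 on LPS arrays and 477 ± 41.0 on control arrays (SD, n = 3 each), 4.67 times higher in LPS, while the geometric mean of 4 spiked-in RNAs was 0.878 times that of the controls. LPS arrays detected 412 to 446 miRNAs and control arrays 213 to 228. A spot-size value recorded by the scanner software, the effective feature size fraction, also differed. It was 0.812 to 0.829 on LPS arrays and 0.6 on every control array, and its part in the results was not tested. The 6 arrays lay on 1 slide, scanned once; row 2 of the slide held LPS 2 and 3, and row 1 held LPS 1 beside the 3 controls. The part that array brightness played in the results below was not tested, so signals are given before and after scaling to that 75th percentile.

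miR-9-3p was detected in LPS exosomes while the other arm of the same hairpins, miR-9-5p, was not. Before scaling, miR-9-3p had signals of 101, 112 and 114 on LPS arrays 1, 2 and 3, against 17.37, 18.78 and 16.97 on control arrays 1, 2 and 3. The groups did not overlap, and 32.0% of all miRNAs on the array likewise had every LPS array above every control array before scaling. The 3 LPS arrays lay close together. Negative control spots, which match no miRNA, had a 95th percentile of 20.1 to 27.7 on LPS arrays and 21.9 to 30.1 on control arrays, so the control signal of miR-9-3p lay within the negative controls and the LPS signal well outside them.

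Before scaling, single spots of miR-9-3p did not overlap between the groups, on arrays that were 4.67 times brighter in LPS by the 75th percentile. Spots of an array are not replicates of a condition. Their overlap was not read after scaling, and it was not counted for other miRNAs. On LPS arrays 40 of 40 spots of the longer miR-9-3p probe and 42 of 42 of the shorter probe were flagged well above background, against 0 of 44 and 0 of 45 on control arrays. The dimmest LPS spot of the longer probe read 76.9 and the brightest control spot 25.4. The highest negative control spot of any LPS array read 43.1, so every LPS spot of this probe exceeded the negative controls of all 3 arrays. Before scaling, the LPS over control ratio was 6.17 for the longer probe and 5.79 for the shorter, measured against controls that are themselves at background.

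**Figure D1:**
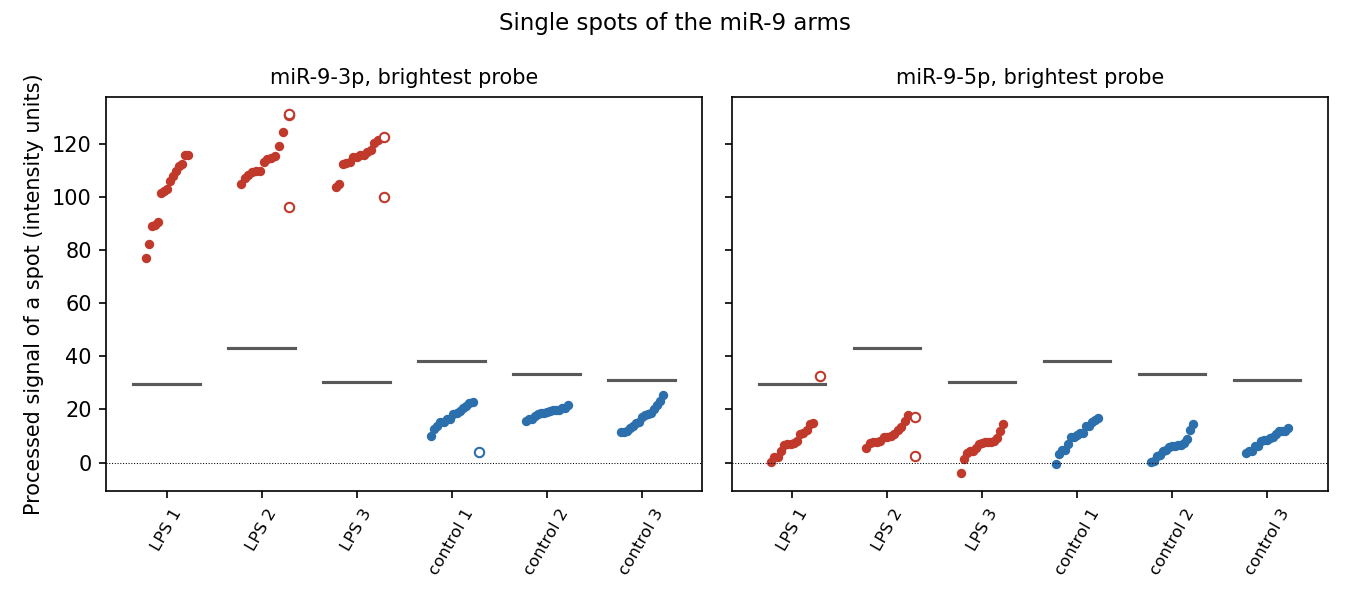
Processed signal of each spot (y axis, intensity units, unscaled) of the brightest miR-9-3p probe (left) and the brightest miR-9-5p probe (right) on the 3 LPS arrays (red) and the 3 control arrays (blue); filled spots, sorted by signal within an array, were used, open spots were marked as outliers by the scanner software and left out, and the grey line is the highest negative control spot of that array. All miR-9-3p spots on LPS arrays lie above the line, from 76.9 up, and all other spots lie below it except 1 open miR-9-5p spot on LPS array 1, at 32.5.

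miR-9-5p, the arm described as induced in human monocytes, had signals of 7.77, 10.4 and 6.47 on LPS arrays and 9.71, 5.94 and 8.54 on control arrays. The groups overlapped, and the difference of 0.155 gave p = 1.0 (exact permutation, two-sided), where 3 against 3 arrays allow no p below 0.1. None of the 42 LPS spots and none of the 45 control spots used for its brightest probe passed the 95th percentile of the negative controls, nor did any spot of its other probe. A spot on LPS array 1 that the scanner software marked as an outlier, and that was left out, read 32.5 and was well above background, against a highest negative control spot of 29.4 on that array. Levels of the 2 arms are not set against each other, since different probes bind with different strength; what can be said is that 1 arm was detected in LPS and the other was not.

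After scaling, the miR-9-3p difference became small, and its test is a weak guide: miR-9-3p entered the test only through the LPS arrays, where it was detected, and its control values are signals that were not well above background. Scaled signals were 51.3, 49.4 and 50.6 on LPS arrays, against 41.4, 37.9 and 35.6 on control arrays, and the groups did not overlap. In the limma fit over the 412 miRNAs detected on all arrays of at least 1 group, miR-9-3p was called higher in LPS, with a log2 difference of 0.40 (SE 0.06, adjusted p = 0.000869 after Benjamini-Hochberg adjustment). Of the 412 tested, 92.2% were called in either direction, 65.5% were called higher in LPS, and 66.3% had every LPS array above every control array after scaling. Of the 187 detected on all LPS arrays and no control array, 77.5% were called higher, so the call does not set miR-9-3p apart from either set.

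The scaled size cannot be read as a fold. The lowest scaled signal of any probe well above background was 13.4 to 15.6 on LPS arrays, against 61.4 to 74.6 on control arrays, so the LPS level of miR-9-3p, 50.4 ± 0.996 (SD, n = 3), would not have been well above background on a control array. The detection flag reached lower: it marked miR-186-5p as detected on all 3 control arrays at scaled log2 signals of 5.59 to 5.80. On that scale the LPS mean of miR-9-3p was 5.66. The miR-9-3p call ended with median centring (0.083, adjusted p = 0.242), with quantile normalization (0.82, adjusted p = 0.095) and with normexp background correction (0.021, adjusted p = 0.616), all in limma. Within slide row 1, where 1 LPS array remained beside the 3 controls, the difference was 0.46. Before scaling, the LPS level of miR-9-3p was 3.41-fold above the dimmest probe well above background on the control arrays. With arrays scaled to the spiked-in RNAs it was 3.89-fold above. That probe is a working limit only, since a probe can read above it without being well above background. After scaling to the 75th percentile the same ratio came out below 1, so with that scaling miR-9-3p in LPS does not exceed that limit.

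**Figure D2:**
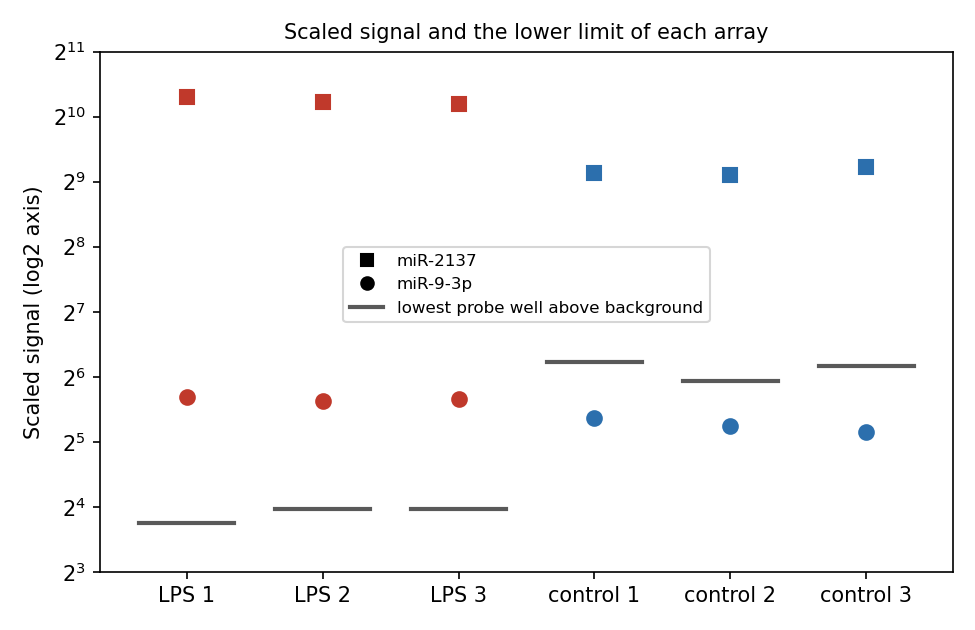
Scaled signal (y axis, log2 scale) of miR-2137 (squares) and miR-9-3p (circles) on the 3 LPS arrays (red) and the 3 control arrays (blue), with the lowest scaled signal of any probe well above background on each array as a grey line. miR-9-3p lies above the line on LPS arrays, where the line is at 13.4 to 15.6, and below it on control arrays, where it is at 61.4 to 74.6; miR-2137 lies above it on all 6.

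miR-2137 was the bright member and was higher in LPS under every scaling tried. Its unscaled signals were 2466, 2720 and 2639 on LPS arrays 1, 2 and 3, against 236, 272 and 286 on control arrays 1, 2 and 3. The groups were far apart, with a 9.88-fold ratio of geometric means before scaling (exact permutation p = 0.1, the smallest that 3 against 3 allow). Before scaling, 32.0% of all miRNAs on the array had every LPS array above every control array. On both groups of arrays 45 of 45 spots of its brightest probe were well above background, so both of its levels are measured and neither is a limit.

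Scaled to the shared miRNAs, miR-2137 had signals of 1255, 1195 and 1170 on LPS arrays and 564, 548 and 599.8 on control arrays. Its log2 difference was 1.08 (SE 0.05, a 2.12-fold rise, limma adjusted p = 1.68e-06). Every LPS array lay above every control array, as for 66.3% of the 412 tested miRNAs. Among the 198 miRNAs that every array detected, 58.1% were called higher, 75 had a larger log2 difference and the median was 0.77. In the authors' deposited value table miR-2137 stood at 9.21, 9.05 and 9.05 on LPS arrays and 8.22, 8.37 and 8.48 on control arrays on the log2 scale, a difference of 0.74 (limma adjusted p = 0.00022).

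The shorter probe of miR-2137, which lacks 1 base, read 352, 371 and 358 on LPS arrays and 34.1, 42.0 and 50.2 on control arrays. On control arrays 34 of its 43 spots were well above background, against 42 of 42 on LPS arrays. Its scaled ratio of LPS over control was 1.85, against 2.11 for the longer probe, so both probes put LPS higher.

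**Figure D3:**
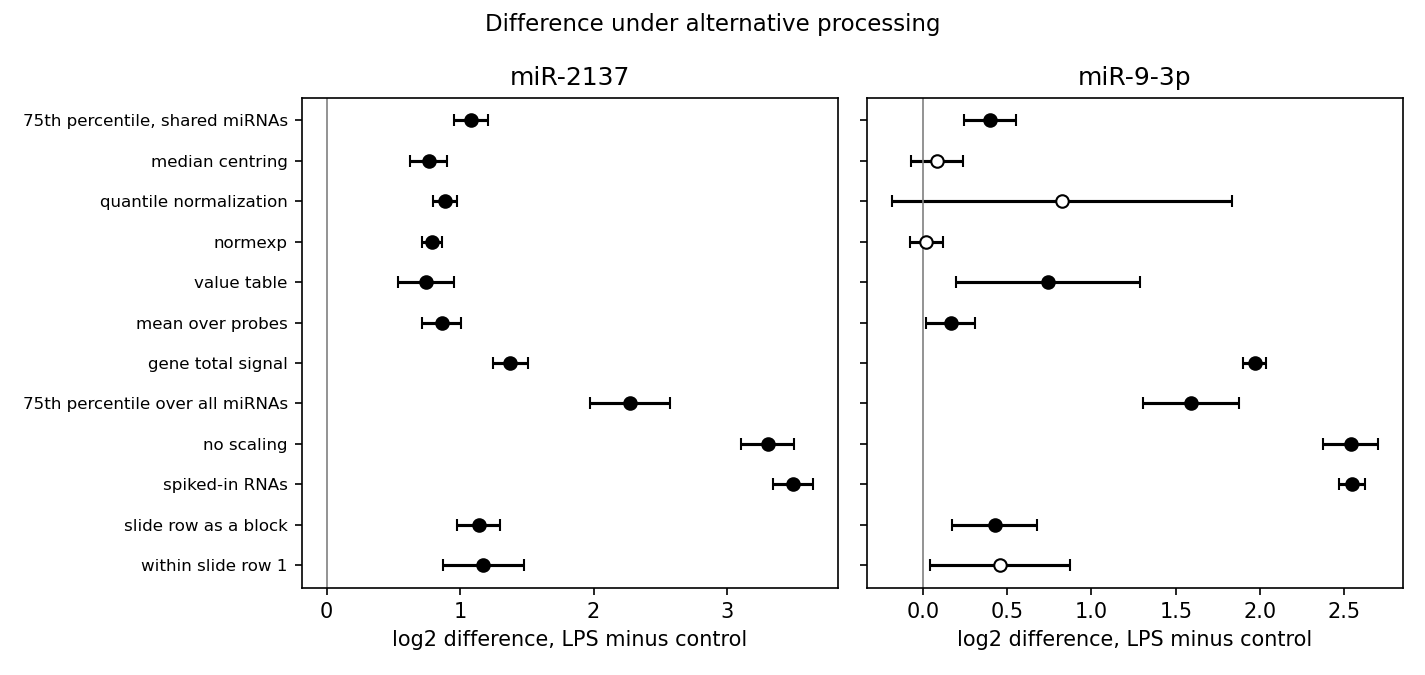
Log2 difference (x axis, LPS minus control) of miR-2137 (left) and miR-9-3p (right) under 12 ways of processing the arrays (rows), with limma's 95% interval; filled points have an adjusted p below 0.05 and open points do not. miR-2137 is filled in every row, from 0.74 with the value table to 3.49 with the spiked-in RNAs, while miR-9-3p is open in 4 rows and lies between 0.021 and 2.54. The row within slide row 1 rests on 1 LPS array.

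miR-147 was detected from neither arm. miR-147-3p, the arm linked to lower cytokine output in mouse macrophages, had signals of 1.28, −2.46 and −2.20 on LPS arrays and −2.73, −1.25 and −1.41 on control arrays, a difference of 0.670 (exact permutation p = 0.8). The groups overlapped around 0. None of the spots used for its 4 probes passed the 95th percentile of the negative controls on any array. A single spot on LPS array 1 read 128, but the scanner software had marked it as an outlier against the other spots of its probe, and it was left out. miR-147-5p had signals of 5.50, 6.54 and 1.07 on LPS arrays and 9.85, 5.12 and 3.60 on control arrays, which overlapped as well (exact permutation p = 0.6). None of the spots used for its probes passed the 95th percentile of the negative controls, and a left-out outlier spot on LPS array 3 read 35.3, above the highest negative control spot of 30.3 there but not marked well above background.

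miR-187-3p was likewise undetected, with signals of −1.73, −5.61 and −6.47 on LPS arrays and −3.06, −6.16 and −0.425 on control arrays. The groups overlapped (difference −1.39, exact permutation p = 0.6), and no spot of its 4 probes, outliers included, passed the 95th percentile of the negative controls. The other arm, miR-187-5p, read 6.46, 2.99 and 2.64 on LPS arrays and −8.30, −6.60 and −5.83 on control arrays. These groups did not overlap, but 32.0% of all miRNAs on the array had every LPS array above every control array before scaling, miR-187-5p was detected on no array, and none of its spots passed the 95th percentile of the negative controls.

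Like the 4 undetected members, 75.3% of the 1881 miRNAs on the array went undetected throughout. For these 4 a difference was not detectable at the arrays' background, which does not show that the miRNAs are absent from exosomes. In the value table the 4 stood between 2.54 and 3.01 on all arrays, near the table's column medians of 2.73 to 2.74. In that table, fitted without a filter, miR-9-5p was called lower in LPS by −0.13 (limma adjusted p = 0.0309), as were 28.4% of all miRNAs. After normexp without a filter it was called lower by −0.095 (limma adjusted p = 0.0347), as were 27.4%. With miR-9-5p at background on every array, its direction is not readable.

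**Figure D4:**
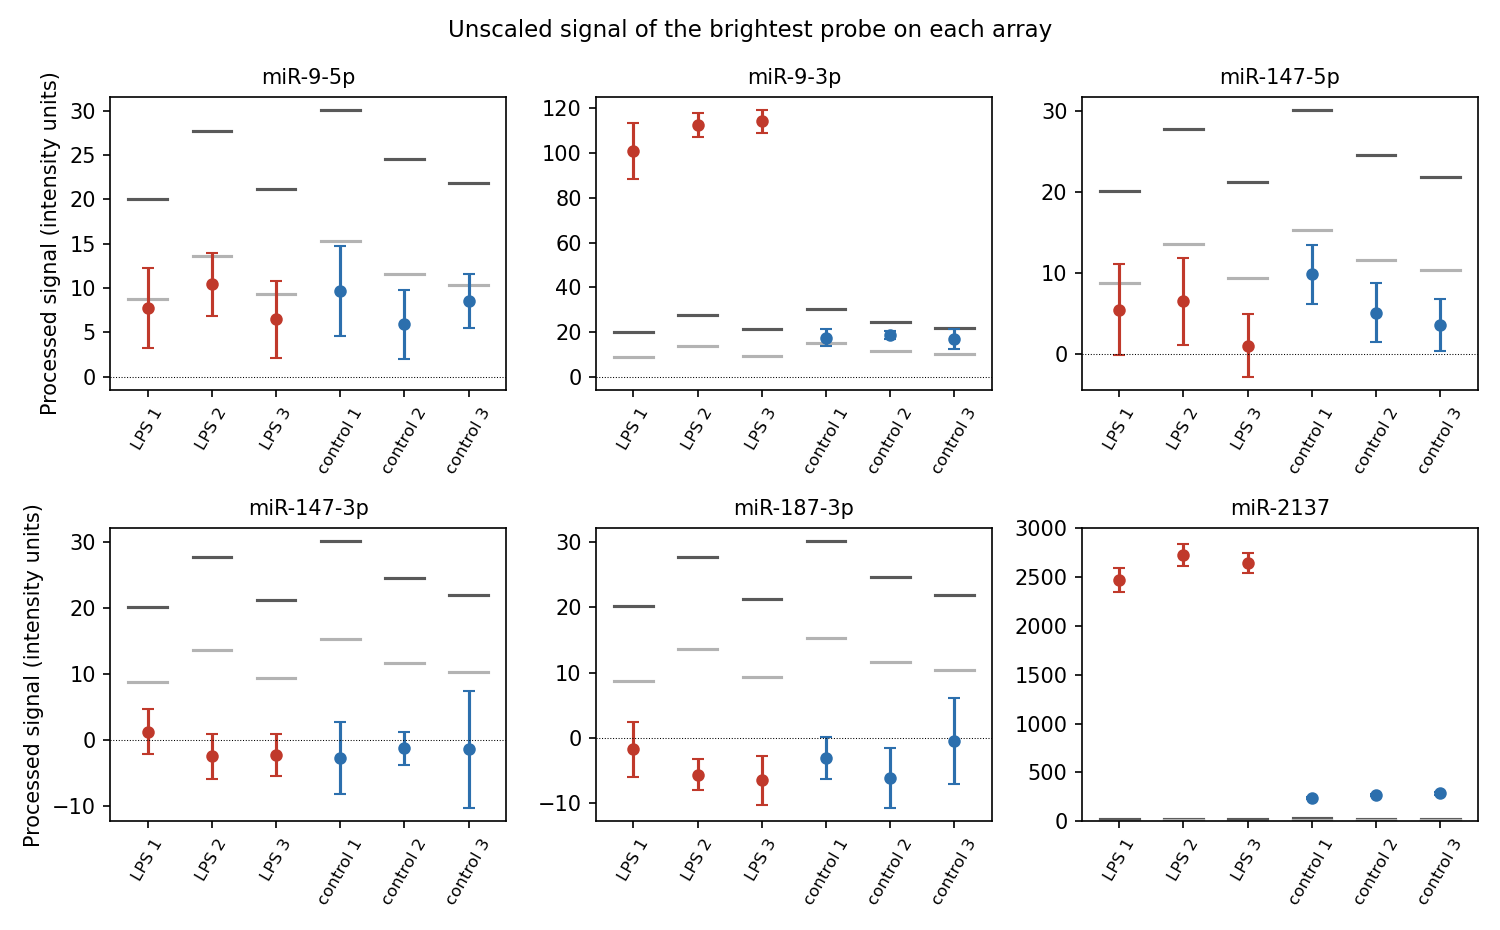
Unscaled processed signal (y axis, intensity units) of the brightest probe of each of the 6 miRNAs on the 3 LPS arrays (red) and the 3 control arrays (blue); points are means over the spots of an array, bars are the SD over those spots, and the grey lines are the median (light) and the 95th percentile (dark) of the negative control spots. Only miR-9-3p on LPS arrays and miR-2137 on all arrays lie above the dark lines.

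Most other miRNAs listed here as induced by LPS in macrophages were detected in LPS exosomes. Of 16 such miRNAs, listed with earlier results of these data known, 9 were detected on all 6 arrays, 5 on all LPS arrays and no control array, and 2, miR-155-3p and miR-511-5p, on none. The 9 detected on all 6 arrays were called higher, as were 58.1% of all miRNAs detected there, with log2 differences of 0.85 to 4.18 and a median of 1.61, against 0.77 over those 198. The 5 detected on LPS arrays only were also called higher, as were 77.5% of all miRNAs detected on all LPS arrays and no control array. They entered the test through the LPS arrays alone. Without a filter miR-511-5p, undetected on every array, was called lower by −0.50 (limma adjusted p = 0.037), with its LPS values at the floor. In that fit 269 of all 1881 miRNAs were called lower. miR-155-5p, the archetypal Toll-like receptor miRNA, differed by 4.18 (SE 0.07) and miR-146a-5p, which restrains the pathway, by 1.34 (SE 0.06). The scanner software's own total signal for miR-155-5p, before scaling, was 1106 to 1365 on LPS arrays and 462 to 542 on control arrays. This gap is smaller than that of its brightest probe, and the reason was not tested. miR-212-3p resembled miR-9-3p in being detected on LPS arrays only, with signals of 125, 148 and 143 on LPS arrays and −1.91, −0.693 and 2.01 on control arrays. Its log2 difference of 2.69 is measured from the floor.

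The miRNAs nearest to the 2 detected members in scaled log2 signal over the 6 arrays, among those with the same detection flags, are given as a description. For miR-9-3p, of 186 candidates, they were miR-125a-3p, miR-101a-3p and miR-9768-5p, at root mean square distances of 0.23, 0.23 and 0.27 on the log2 scale. For miR-2137, of 197 candidates, they were miR-3473e, miR-20b-5p and miR-5100, at distances of 0.25, 0.30 and 0.34. All 6 were called higher in LPS, by 0.45 to 1.36, but they were chosen for closeness on these same arrays to members called higher. Calls of higher covered 77.5% of miRNAs with the flags of miR-9-3p and 58.1% of those detected on all 6 arrays.

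Because miR-9 is also a neural miRNA, markers of other sources were read beside it. Of 8 neural miRNAs, miR-128-3p was detected on all arrays, miR-138-5p and miR-338-3p on all LPS arrays only, miR-219a-5p on 3 LPS and 2 control arrays, and 4, the neuron-defining miR-124-3p with miR-129-5p, miR-137-3p and miR-153-3p, on none. Of the 4 tested, 3 were called higher, as were 65.5% of all 412 tested miRNAs, and miR-338-3p was called lower. miR-338-3p, miR-138-5p and miR-219a-5p entered the test through the LPS arrays alone, so their calls are not read as directions. The summed unscaled signal of the 8 was 875 to 1014 on LPS arrays and 75.3 to 88.6 on control arrays. Negative signals were left out of this and the sums below, so for undetected miRNAs the sums hold background. The macrophage and blood-cell miRNAs miR-223-3p, miR-142a-3p, miR-342-3p and miR-155-5p were detected on all 6 arrays and miR-142a-5p on LPS arrays only. The 4 detected on all arrays were called higher, as were 58.1% of all miRNAs detected there. The summed signal of the 5 was 5340 to 6412 on LPS arrays and 328 to 364 on control arrays. Of this, miR-155-5p, also listed as LPS-induced, gave 2895 to 3458 on LPS arrays and 37.7 to 39.0 on control arrays. None of 4 erythroid and serum markers, miR-451a among them, and none of 3 muscle markers was detected on any array, and of 6 epithelial markers miR-200c-3p alone was, on LPS arrays. Summed signals were 48.8 to 52.2 on LPS arrays and 23.3 to 28.0 on control arrays for the erythroid and serum markers, 72.8 to 84.7 on LPS arrays and 11.4 to 17.6 on control arrays for the epithelial markers, and 3.48 to 7.10 on LPS arrays and 12.6 to 14.1 on control arrays for the muscle markers. The part of other cell sources in the miR-9-3p signal was not tested.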

How the data were processed

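The scanner files deposited for each array hold linear intensity; per the file headers the signal was background-subtracted with Feature Extraction 10.7.1.1, while 9.1 stands in the submitters' processing notes. A log2 value table was deposited too; nothing in the sources used here states how the authors normalized or centred it. It correlated at r = 0.896 to 0.963 with the log2 signal across the 198 miRNAs detected on all arrays, which are not independent replicates.

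Control and outlier spots were left out, spots were averaged per probe, and the brightest probe over the 6 arrays stood for a miRNA, with the detection flag of the files. Scaling divided the signals of an array by the 75th percentile of its miRNAs that every array detected, and multiplied them by the geometric mean of these percentiles. Values were floored at 9.89, the lowest scaled signal among an array's detected miRNAs (median of the 6), before log2 was taken. The fit used limma 3.58.1 (R 4.3.3) on all 412 miRNAs that every LPS array or every control array detected, with Benjamini-Hochberg adjusted p below 0.05 as a call; it was tested on simulated data. The 6 permutation tests (scipy 1.17.1) on unscaled signals were not adjusted. A fold over the dimmest probe sets the LPS level over, on each control array, the higher of the miRNA's signal and the lowest signal well above background. Precision is limited by having 6 arrays.

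Members, lists and tests were chosen with earlier results of these data known. Named were the 6 miRNAs, other arms of their hairpins, miRNAs sharing a seed, 3 LPS-induced miRNAs and the 3 nearest miRNAs of each tested member; other list members and markers were named after their values were seen. No per-sample columns were left unused. Alternatives covered scaling, background correction, filters, floors, detection, slide row, the replicate number and each array left out.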

Additional observations from a re-analysis of the deposited data

How the results depend on the processing

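The log2 difference of miR-2137 kept its direction and its call under all 26 other settings, and that of miR-9-3p kept its direction under all 25 that tested it and its call under 20. It lost the call with median centring (0.083), quantile normalization (0.82) and normexp with or without a filter (0.021 both ways). It also lost the call within slide row 1 (0.46), where only 1 LPS array remained. The cause was not tested. Without scaling the differences were 3.30 for miR-2137 and 2.54 for miR-9-3p, and with the spiked-in RNAs 3.49 and 2.54. Leaving out 1 array at a time gave 0.98 to 1.12 for miR-2137 and 0.36 to 0.42 for miR-9-3p. The count of members detected stayed at 2 in LPS and 1 in control with 3 other detection rules, and the unscaled differences of the 4 undetected members moved by less than 1 SD under 8 settings each, with a change of sign under at least 1 of them for each. Over all miRNAs, 270 were called higher and 110 lower, 264 to 272 and 108 to 119 with 1 array left out. Higher calls numbered 115 when only the 198 miRNAs detected on all 6 arrays were tested. They numbered 176 with well above background as detection, which tested 359 miRNAs and also moved the floor to 42.0; the parts of these were not tested. Lower calls numbered 59 with the percentile over all miRNAs, 39 without scaling, 38 with the spiked-in RNAs and 269 with no filter. Fits without a filter on the value table (443 higher, 535 lower) and after normexp (445 and 516) were added after the data were seen. Higher calls made up 71.1% of calls, against 85.1% with the percentile over all miRNAs, 90.3% without scaling and 90.7% with the spiked-in RNAs; the median log2 difference over the 198 miRNAs detected on all arrays was 0.77, 1.96, 2.99 and 3.18 in the same order. It was 48.7% of calls with no filter, 59.9% over miRNAs detected on all 6 arrays, 45.3% in the unfiltered value table and 46.3% in the unfiltered normexp fit. Same-numbered arrays deviated from their group means with correlations of −0.16, −0.062 and −0.050, which gave no sign of pairing by number. Such correlations, from 3 arrays per group, cannot exclude pairing. With the replicate block 270 were higher and 110 lower, miR-2137 differed by 1.08 and miR-9-3p by 0.40, and no call of theirs changed. Signal over background limits the 4 undetected members on all arrays and miR-9-3p on control arrays.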
